A study of Mus musculus with 12 samples.

Results

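The clustered histone genes are the mouse genes whose symbols begin with Hist1h, Hist2h, Hist3h or Hist4h, the older names that state the gene cluster and the histone class. They were chosen by this pattern alone, with earlier results of these data known. Of the 18903 genes in the table, 56 carried the pattern. By class they were 5 H1, 12 H2A, 17 H2B, 11 H3 and 11 H4 genes, of which 47 belonged to cluster 1 on chromosome 13, 7 to cluster 2 on chromosome 3 and 2 to cluster 3 on chromosome 11. A filter on low counts passed 52 of them, and *Hist1h2ao*, *Hist1h2an*, *Hist1h3a* and *Hist2h2bb*, with 63, 55, 46 and 23 reads in total over all libraries, were not tested. The levels were measured by RNA-seq of captured mRNA in 12 libraries of primary astrocytes, with 2 libraries in each of 6 groups: WT and *Rack7*-cKO at postnatal day 1 (P1), P6 and P8. Both genotypes carried the hGFAP-cre transgene, in which a human *GFAP* promoter drives Cre from the embryonic neural stem cells onward. WT mice had unmodified *Rack7* alleles, while in *Rack7*-cKO mice exons 3 and 4 of both alleles were flanked by loxP sites. Cells were dissociated from brains stripped of their meninges, grown in astrocyte medium and shaken to remove microglia and oligodendrocytes, and mice of both sexes were used in the study. P1, P6 and P8 are the ages of the mice at dissection, after which the cells were cultured for weeks. Here and below, age means this age at dissection and not the age of the cells when RNA was taken.

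The libraries held between 54413504 and 89183250 counted reads. *Zmynd8*, the gene that encodes RACK7, stood higher under the cKO label, at P1, P6 and P8 by 0.65, 1.04 and 0.70 on the log2 scale, a direction opposite to that of a lost transcript; its whole-gene count also takes in the exons outside the deleted part, so it does not check the deletion. The genotype is therefore given below as the label of each library. Astrocyte markers were present in all groups, and their summed level at P8 was 1526 to 1911 CPM (read counts scaled to a common library size, after TMM) in libraries labelled WT against 672 to 686 in those labelled cKO. In the same libraries fibroblast markers summed to 25630 to 25740 CPM in WT and 8149 to 8399 in cKO. Microglia markers summed to 1950 to 2056 and 3867 to 3870 CPM. The lists hold different genes, so these sums do not give shares of cells, and further cell types are given below. The labels and methods call the libraries of a group biological replicates without saying whether they came from separate animals, so the tests measure the spread between these libraries.

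Histones H2A, H2B, H3 and H4 form the protein core around which DNA is wound, and H1 binds the linker DNA between these cores. Most clustered histone genes are replication-dependent, meaning that they are transcribed during S phase to supply new chromatin. Their mRNAs are unusual in that they end in a short stem-loop bound by the protein SLBP in place of a poly(A) tail, and they have no introns. A library made by capturing poly(A) tails therefore takes up these mRNAs poorly, but several clustered genes can also make longer, polyadenylated transcripts that end downstream of the stem-loop, as happens in differentiating cells.

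The stem-loop was visible in the annotated transcripts of most members. A stem of 6 bases that starts with GG, closed by its perfect reverse complement over a loop of 4 bases that starts with TT, was found past the stop codon of 36 of the 56 genes (64.3%). Of all genes in the table with a transcript sequence, 0.705% had it. That share counts a match anywhere in a transcript and takes in the members. These 36 genes used 5 distinct sequences. The most frequent served 23 genes of H1, H2A, H2B and H3, among them *Hist1h1c*, while the sequences shown for *Hist1h4h*, *Hist1h3f*, *Hist1h4i* and *Hist1h4j* were found in 5, 4, 2 and 2 genes. They are shown because this loop marks the end of a replication-dependent histone mRNA. Each is 30 bases of the sense strand from GENCODE vM21 on GRCm38, with the stem-loop in capitals, at chr13:23739505-23739534 (+ strand), chr13:23531451-23531480 (+), chr13:23544925-23544954 (+), chr13:22040959-22040988 (- strand) and chr13:21735430-21735459 (+) in this order.
Hist1h1c: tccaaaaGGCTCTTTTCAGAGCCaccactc
Hist1h4h: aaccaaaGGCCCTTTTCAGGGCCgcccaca
Hist1h3f: ccaaaacGGCTCTTTTAAGAGCCacctcca
Hist1h4i: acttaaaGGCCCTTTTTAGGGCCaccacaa
Hist1h4j: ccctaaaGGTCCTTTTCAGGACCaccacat

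The annotated transcript ends differed among the members. In 26 genes the transcript ran more than 60 bases past the loop, or more than 60 bases past the stop codon where there was no loop, and these are called extended. In *Hist1h1c* it ran 840 bases past the loop and in *Hist3h2a* 1643 bases, and both had a poly(A) signal (AATAAA or ATTAAA in the last 50 bases). The extended genes *Hist1h2bc*, *Hist2h2be*, *Hist1h2bq*, *Hist1h2br*, *Hist1h4a* and *Hist1h3g* had no loop in their 3′ region. In 16 genes the transcript ended within 60 bases of the loop, and these are called short. The 14 others had no loop and little or nothing annotated past the coding part. Below, they are called genes with the coding part alone.

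The mRNA level was concentrated in 2 members. *Hist1h1c*, the gene of the linker histone H1.2, had a mean of 140 CPM over the 12 libraries and made up 42.6% of the summed CPM of all members, and with *Hist1h2bc*, an H2B gene at 84.8 CPM, the share came to 68.4%. The next members were *Hist3h2a* at 20.5 CPM, *Hist1h2bg* at 10.6, *Hist1h4i* at 7.03, *Hist2h3c1* at 6.83, *Hist2h2be* at 6.02 and *Hist2h3c2* at 5.19. All 8 of these had an extended transcript. Per kb of annotated exon, the mean level was 89.9 CPM per kb for *Hist1h1c*, 73.4 for *Hist1h2bc* and 17.1 for *Hist1h2bg*.

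Together, the 26 extended genes held 93.1% of the summed mean CPM, the 16 short ones 5.59% and the 14 with the coding part alone 1.30%. Their median levels per kb were 0.886, 0.955 and 0.368 CPM per kb, so the extended and short genes had like medians and the difference in share lay in a few extended genes of high level. Annotated length and level are not independent here, since an annotation is built from the transcripts that were seen.

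**Figure D1:**
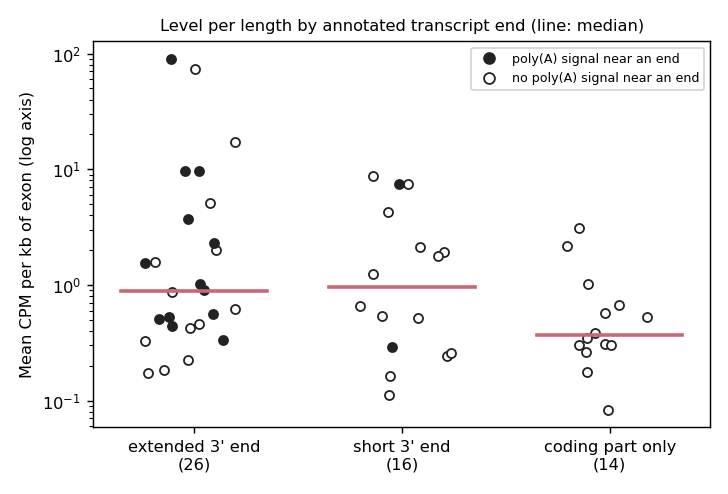
Mean CPM per kb of annotated exon over the 12 libraries (log axis) for each of the 56 genes, grouped by annotated transcript end; filled points have a poly(A) signal near an annotated end and red lines are group medians. *Hist1h1c* and *Hist1h2bc* stand at 89.9 and 73.4 CPM per kb in the extended group, and the medians are 0.886, 0.955 and 0.368.

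The main comparison asked how these genes differed between the genotypes at each age. At P8 the clustered histone genes were higher in the libraries labelled cKO. Their summed level was 262 and 251 CPM in the libraries labelled WT and 430 and 421 CPM in those labelled cKO, a ratio of 1.66. At P1 the sums were 257 and 274 against 316 and 326 CPM, a ratio of 1.21, and at P6 they were 313 and 322 against 398 and 379 CPM, a ratio of 1.22. At each age both cKO libraries lay above both WT libraries. Without *Hist1h1c* and *Hist1h2bc* the P8 ratio was 1.85, compared with 1.22 for P1 and 1.17 for P6, so it did not rest on these 2 genes. Here and below, fewer cells of a type and less RNA per cell cannot be told apart.

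**Figure D2:**
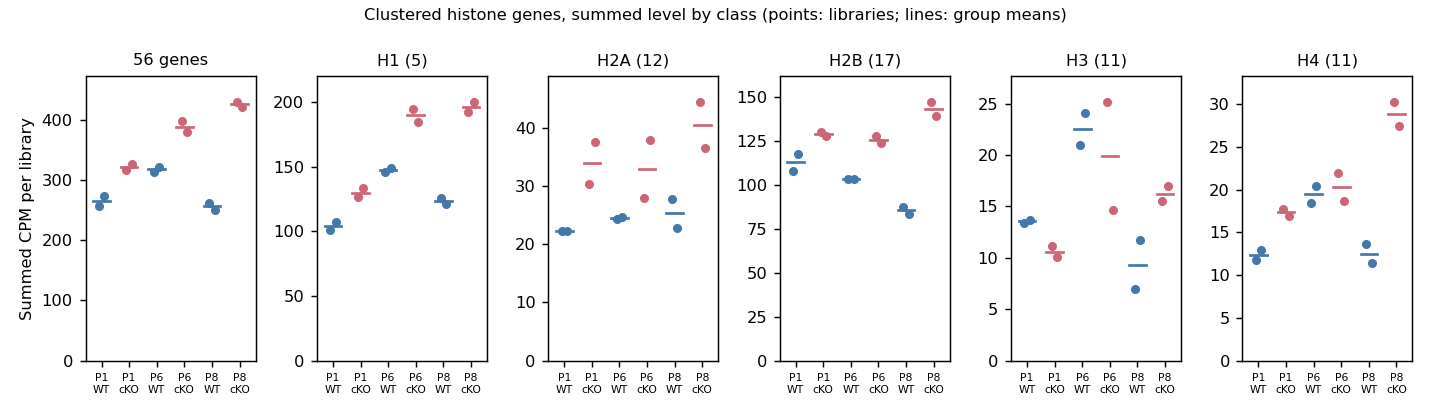
Summed CPM in each library (points) and group mean (lines) for all 56 genes and for each histone class, in blue for libraries labelled WT and red for cKO, with the number of genes in brackets. In the sum of all genes the P8 cKO libraries stood at 430 and 421 CPM and the P8 WT libraries at 262 and 251.

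By class, the sum of the H4 genes went from 13.7 and 11.4 CPM in P8 WT to 30.3 and 27.5 CPM in P8 cKO, a ratio of 2.30. The other ratios at P8 were 1.59 for H1, 1.60 for H2A, 1.68 for H2B and 1.74 for H3. The H2A and H3 values rested on *Hist2h2aa1* and *Hist2h3c1*, whose counts are described below as uncertain. Without *Hist2h2aa1* the H2A sums at P8 were 22.4 and 22.9 against 28.6 and 25.9 CPM, a ratio of 1.20. Without *Hist2h3c1* the H3 sums at P8 were 5.40 and 3.75 against 12.4 and 11.7 CPM, a ratio of 2.63, and the H3 ratios at P1 and P6, which were 0.781 and 0.885 with it, were 1.31 and 1.33. The ratio of all members without these genes was 1.64 at P8. These sums were formed after the counts had been seen.

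Gene by gene, a member was called when edgeR's quasi-likelihood test, adjusted over all 17938 genes tested by the Benjamini-Hochberg method, gave p under 0.05 with a fold change of at least 1.5. At P8, 20 of the 52 tested members (38.5%) were called higher in cKO, beside 11% of all genes tested, and none of the 52 was called lower, beside 8.33% of all genes. At an unadjusted p under 0.05, these counts were 23 and 0, and DESeq2 called 22 higher and 0 lower. The median log2 difference over the tested members was 1.17, and 47 of 52 were positive, compared with a median of 0.01 and 51.1% positive among all genes. The 20 were 2 of 5 H1, 3 of 10 H2A, 6 of 16 H2B, 3 of 10 H3 and 6 of 11 H4 genes.

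This count depended on single libraries. Without P8 WT replicate 2, 9 members were called higher, and without P8 WT replicate 1 or P8 cKO replicate 1 there were 12 and 13. Of the 20, 7 were called in all 12 fits that left out a library, and 14 in all 7 other fits of the full set of libraries; *Hist1h2bc*, *Hist1h1d*, *Hist1h2br*, *Hist1h4n*, *Hist1h4m* and *Hist2h3c2* belonged to both sets.

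The 2 most abundant members rose with little spread. *Hist1h1c* was at 121 and 117 CPM in P8 WT and 182 and 187 CPM in P8 cKO, a log2 difference of 0.63 ± 0.05 (SE, adjusted p = 3.27e-06). *Hist1h2bc* was at 63.9 and 62.3 against 104 and 103 CPM, a difference of 0.71 ± 0.06 (adjusted p = 4.6e-06). In both genes the groups were far apart compared with the spread within them, while the fold changes of 1.55 and 1.64 lay close to the threshold of 1.5.

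The largest rises at P8 among members with a mean of at least 1 CPM were found in *Hist1h4n*, *Hist1h4m*, *Hist1h1d* and *Hist1h2br*. *Hist1h4n*, an H4 gene, was at 0.841 and 0.429 CPM in WT and 3.67 and 3.15 CPM in cKO, a log2 difference of 2.43 ± 0.34 (adjusted p = 0.0003). *Hist1h4m*, a near copy of it, was at 1.61 and 0.803 against 4.97 and 4.91 CPM, a difference of 2.04 ± 0.35 (adjusted p = 0.00115). These H4 genes share 88.1% of the 100-base windows of *Hist1h4m*, so reads may be split between them and they are not separate evidence. *Hist1h1d*, the gene of linker histone H1.3, rose from 2.34 and 1.54 to 6.52 and 6.97 CPM, by 1.80 ± 0.24 on the log2 scale (adjusted p = 0.000239), and shared under 1% of its windows (0.792%) with other genes. *Hist1h2br*, an H2B gene that shares 86.4% of its windows with *Hist1h2bq*, rose from 1.08 and 1.23 to 3.03 and 4.14 CPM, by 1.63 ± 0.30 (adjusted p = 0.0019). In each of these genes the lowest cKO library lay above the highest WT library.

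**Figure D3:**
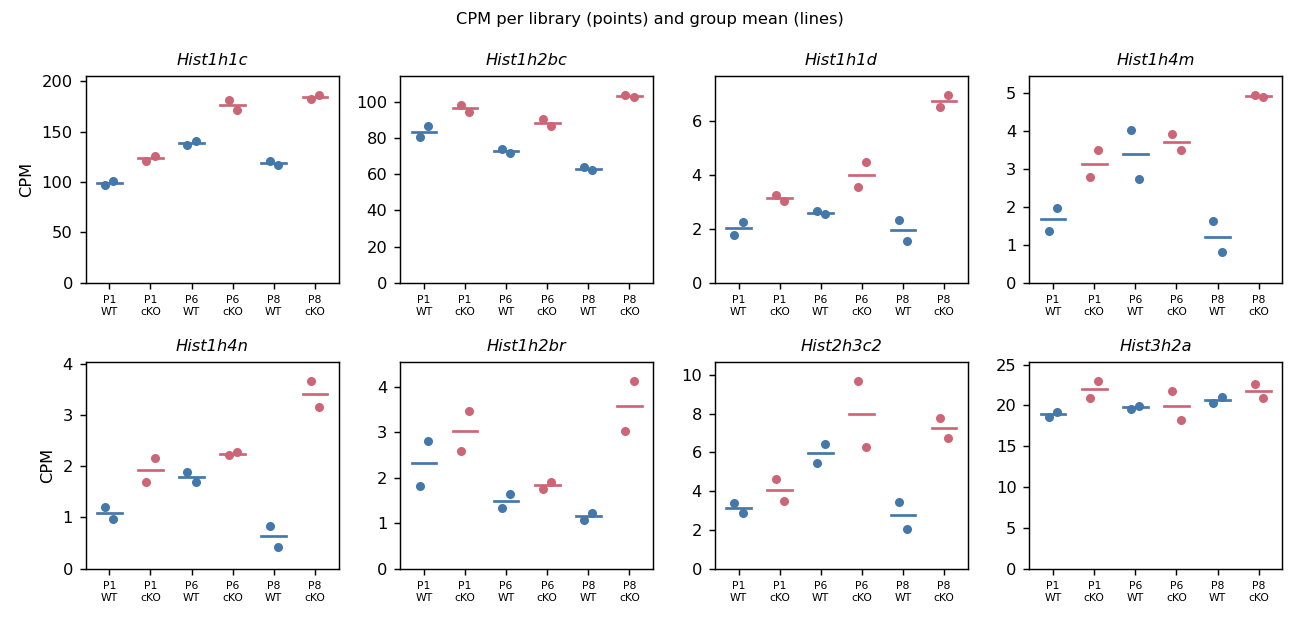
CPM in each library (points) and group mean (lines) for 8 members, in blue for libraries labelled WT and red for cKO; each panel has its own axis from 0. *Hist1h4n* stood at 0.841 and 0.429 CPM in P8 WT and 3.67 and 3.15 in P8 cKO, whereas the *Hist3h2a* groups overlapped at P8.

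Other abundant members gave smaller differences at P8. *Hist1h2bg* was at 9.20 and 7.36 CPM in WT and 13.1 and 13.2 in cKO (log2 difference 0.67 ± 0.13, adjusted p = 0.00232), *Hist1h4i* at 5.36 and 5.49 against 10.1 and 8.38 (0.77 ± 0.17, adjusted p = 0.00579), and *Hist2h3c2* at 3.43 and 2.06 against 7.75 and 6.76 (1.40 ± 0.29, adjusted p = 0.00361). Neither *Hist3h2a* nor *Hist2h2be* was called at P8: *Hist3h2a*, an H2A gene outside the large clusters, was at 20.3 and 21.0 against 22.6 and 20.9 CPM (0.08 ± 0.10, adjusted p = 0.632), and *Hist2h2be*, an H2B gene, was at 3.68 and 3.52 against 4.31 and 4.74 CPM (0.33 ± 0.13, adjusted p = 0.0733). The *Hist3h2a* groups overlapped, and its exons share 29.8% of their windows with *Trim17*, which it overlaps. *Hist2h3c2* shares 61.6% of its windows with *Hist2h3c1*, so reads may be split between them and its value is uncertain. *Hist1h2be*, named here after its values were seen, was called (1.20 ± 0.35, adjusted p = 0.0229). It overlaps *Hist1h1e* and had cKO libraries at 9.03 and 3.84 CPM, so its groups were apart but its rise rested largely on P8 cKO replicate 1.

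The linker histone genes gave unequal values, and the differences between these genes were not tested. Besides *Hist1h1c* and *Hist1h1d*, *Hist1h1e* was at 1.88 and 1.77 CPM in P8 WT and 2.05 and 5.50 in P8 cKO, a log2 difference of 1.05 ± 0.43 that missed the threshold (adjusted p = 0.0942), and it passed with DESeq2 (adjusted p = 0.0283) and without P8 cKO replicate 1 (adjusted p = 0.00777), while over the other settings and libraries the adjusted p in edgeR reached 0.808. *Hist1h1e* overlaps *Hist1h2be*, which was at 9.03 and 3.84 CPM in the same P8 cKO libraries. Reads may be split between these genes, so the separate value of *Hist1h1e* is uncertain. *Hist1h1b*, the gene of H1.5, was at 0.622 and 0.817 against 0.682 and 0.689 CPM, with overlapping groups and a difference of -0.07 ± 0.50 (adjusted p = 0.937). *Hist1h1a* was at 0.135 and 0 CPM against 0.423 and 0.214 CPM, a difference of 2.27 ± 1.37 that was far from the threshold (adjusted p = 0.246). *Hist1h1a* and *Hist1h1b* are among the genes called coding part alone, with 48 and 0 bases annotated past the stop codon. The annotated transcripts of the other 3 H1 genes are extended.

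Among the members with a mean under 1 CPM, *Hist1h2ab*, *Hist1h2ad*, *Hist1h2bj*, *Hist1h4j*, *Hist2h4* and *Hist1h3g* were called at P8. *Hist1h3g* had no read in either P8 WT library and 0.0682 and 0.190 CPM in the P8 cKO libraries, which is at least 2.81-fold higher when each empty library is set to the 3 reads that a count of 0 allows. *Hist2h3b* had no read in either P8 cKO library and was not called. At such counts a few reads set the fold change.

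**Figure D4:**
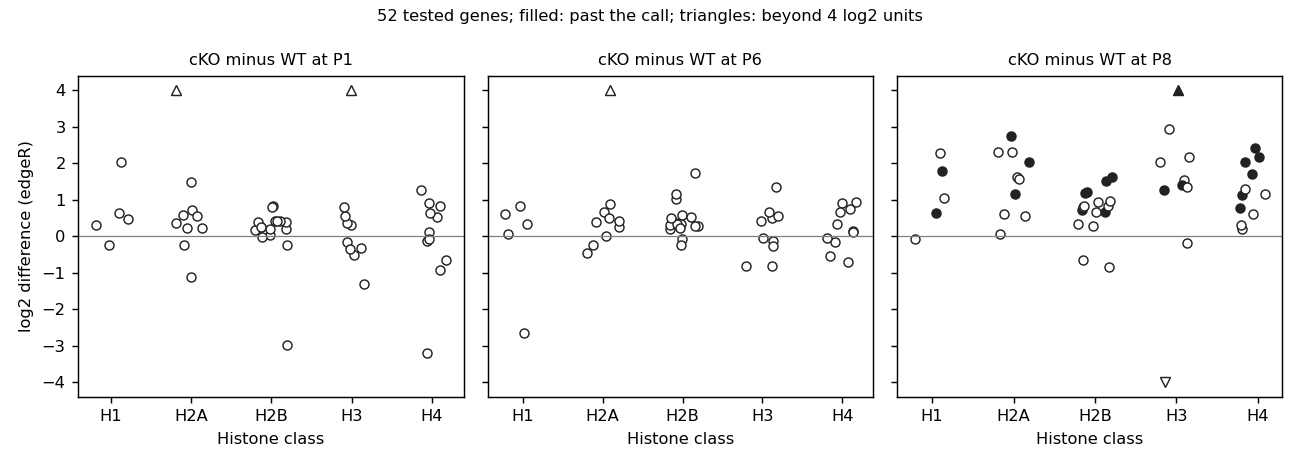
edgeR log2 difference, cKO minus WT, of the 52 tested members at P1, P6 and P8, grouped by histone class; filled points were called (adjusted p under 0.05 and at least 1.5-fold) and triangles lie beyond 4 log2 units, where 1 group had no reads or reads in 1 library alone. The 20 filled points are all at P8, and all are above 0.

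At P1 and P6 no member was called in either direction. At P1, 4% of all genes tested were called higher in cKO and 0.881% lower, and at P6 7.12% and 6.32%. At an unadjusted p under 0.05 with the same fold, 4 members were higher and 1 lower at P1, and 1 was higher and 0 lower at P6, and DESeq2 called 2 higher and 1 lower at P1 and 2 higher and 0 lower at P6. The median log2 difference of the members was 0.31 at P1 and 0.34 at P6. Differences under 1.5-fold passed the p threshold in the most abundant members. *Hist1h1c* was at 97.4 and 101 CPM in P1 WT and 121 and 126 CPM in P1 cKO (0.31 ± 0.05, adjusted p = 0.00216), and at 137 and 141 against 181 and 172 CPM at P6 (0.34 ± 0.05, adjusted p = 0.000389). *Hist1h2bc* differed by 0.21 ± 0.06 at P1 (adjusted p = 0.0418) and by 0.28 ± 0.06 at P6 (adjusted p = 0.00382). Both genes thus passed the p threshold at each age in the main fit, with a fold that reached 1.5 at P8. Under the other settings the adjusted p of *Hist1h2bc* at P1 reached 0.0868, so it did not pass in all of them.

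Whether the genotype difference itself changed with age was tested with interaction terms. The term is the signed difference, cKO minus WT, at the later age minus that at the earlier one. Between P6 and P8 it was called positive in 7 of 52 members (13.5%), beside 12.7% of all genes tested. It was called negative in 0, beside 8.98%, so the share of members was near that of all genes. The 7 were *Hist1h2bc*, *Hist1h1c*, *Hist1h1d*, *Hist1h4i*, *Hist1h2br*, *Hist1h4n* and *Hist1h4m*. The largest changes were in *Hist1h4n* (2.10 ± 0.46, adjusted p = 0.00867) and *Hist1h4m* (1.90 ± 0.47, adjusted p = 0.017). The call of *Hist1h2br* was lost with DESeq2 size factors, library totals or no filter and in 10 of the 12 fits that left out a library (adjusted p up to 0.169). Those of *Hist1h1d*, *Hist1h4i* and *Hist1h4m* were lost in 6, 5 and 2 of these 12 fits, and those of *Hist1h2bc*, *Hist1h1c* and *Hist1h4n* in 0. Between P1 and P6, 0 members changed in either direction, beside 7.15% and 8.27% of all genes. At an unadjusted p under 0.05 the term was positive in 2 members and negative in 2, and DESeq2 called 3 in all.

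The change with age was then compared within each genotype. From P6 to P8 in libraries labelled WT, 9 members fell (17.3%), beside 10.2% of all genes, and 0 rose, beside 8.53%; at an unadjusted p under 0.05 the counts were 10 and 0, and DESeq2 called 1 higher. Among members with a mean of at least 1 CPM the largest falls were *Hist1h4n* (-1.50 ± 0.34, adjusted p = 0.00615), *Hist1h4m* (-1.49 ± 0.34, adjusted p = 0.00729), *Hist1h2ac*, an H2A gene (-1.45 ± 0.32, adjusted p = 0.00599), and *Hist1h1e* (-1.35 ± 0.44, adjusted p = 0.0369). *Hist1h2ac* went from 2.15 and 2.74 CPM to 0.673 and 1.11 CPM. Of the members with lower levels, *Hist1h3f* fell further (-2.50 ± 0.79, adjusted p = 0.0329), and *Hist1h3g*, with no read in P8 WT, was at least 2.01-fold lower. Of the fits that left out a library, 8 of 12 lost the call of *Hist1h1e* (adjusted p up to 0.158) and 2 of 12 that of *Hist1h4m*, the latter without P6 WT replicate 1 or P8 WT replicate 2. The count of falls was 4 without P8 WT replicate 2, 5 without P8 WT replicate 1 and 5 without P6 WT replicate 2.

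In the libraries labelled cKO the same step gave few calls: 2 members rose (3.85%), beside 11.6% of all genes, and 1 fell (1.92%), beside 12%. *Hist1h2br* rose by 0.97 ± 0.29 (adjusted p = 0.0247) and *Hist1h1d* by 0.75 ± 0.23 (adjusted p = 0.0278), and *Hist2h2be* fell from 8.45 and 8.73 CPM to 4.31 and 4.74 CPM (-0.92 ± 0.13, adjusted p = 0.000216). The *Hist1h2br* call was lost without either P6 cKO replicate or P8 cKO replicate 2, and that of *Hist1h1d* without P6 cKO replicate 1 or either P8 cKO replicate. *Hist2h2be* also fell in WT, from 6.77 and 6.77 to 3.68 and 3.52 CPM (-0.91 ± 0.13, adjusted p = 0.000358), and the test of the difference between the genotypes did not pass for it. The WT and cKO values at P6 and P8 enter the genotype differences above as well, so these comparisons share libraries.

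From P1 to P6, 3 members rose in WT (5.77%, beside 12.2% of all genes) and 0 fell (beside 10.8%; 0 at an unadjusted p under 0.05 and 0 with DESeq2). These were *Hist1h4h* (1.46 ± 0.27, adjusted p = 0.00163), *Hist1h4m* (1.02 ± 0.34, adjusted p = 0.036) and *Hist2h3c2* (0.93 ± 0.28, adjusted p = 0.0256). The *Hist1h4m* call was lost with library totals, the compared groups alone or a replicate block (adjusted p up to 0.0532) and without P1 WT replicate 1, P6 WT replicate 1 or either P8 cKO replicate (up to 0.21), and that of *Hist2h3c2* without either P1 WT replicate or P6 WT replicate 2 (up to 0.129). Without P1 WT replicate 1 the count of rises was 1. In cKO, 4 members rose (7.69%, beside 10.8% of all genes) and 0 fell (beside 10.3%; 2 at an unadjusted p under 0.05 and 2 with DESeq2): *Hist1h1e* (2.02 ± 0.44, adjusted p = 0.00514), *Hist2h3c2* (0.98 ± 0.28, adjusted p = 0.0206), *Hist1h4h* (0.96 ± 0.26, adjusted p = 0.0159) and *Hist1h4a*, which was at 0.0510 and 0.0176 CPM in P1 cKO and 0.457 and 0.342 CPM in P6 cKO. The *Hist1h4h* call was lost without either P1 cKO replicate or P6 cKO replicate 1, and that of *Hist2h3c2* without P1 cKO replicate 2 or P6 cKO replicate 1. The count of rises was 1 without P1 cKO replicate 2 and 2 without P6 cKO replicate 1.

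The features that the choice of genes did not use were set beside the P8 calls. Each count of calls in this paragraph stands beside 11% of all genes tested that were called higher in cKO at P8. Among tested members, 14 of 26 with an extended transcript, 6 of 14 with a short one and 0 of 12 with the coding part alone were called higher in cKO at P8, with medians of 1.19, 1.52 and 0.89 on the log2 scale. The genes with the coding part alone also had the lowest levels, with at most 1.18 CPM on average, and the difference in calls between these sets was not tested. Of the members with a poly(A) signal, 8 of 15 were called, compared with 12 of 37 without. Sequence shared with other genes makes counts uncertain in this family, and 25 of the 56 members had more than 50% of their 100-base windows in another gene. Without them, 13 of 30 members were called higher at P8, and among those with more shared sequence 7 of 22, so the P8 result was seen on either side of this limit.

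A stretch of cluster 2 was counted differently between libraries. *Hist2h2aa1*, at chr3:96245497-96246082, had no read in 6 of the 12 libraries and between 321 and 1172 reads in the other 6. *Gm20634*, an annotated transcript that spans *Hist2h2aa1* and *Hist2h3c1*, had no read in the same 6 libraries. Where these 2 were counted, *Hist2h3c1* (chr3:96246685-96248509) was low, at 91 reads in P8 WT replicate 1 compared with 575 in replicate 2. For *Hist2h3c1* alone the log2 difference at P8 was -0.17 ± 0.77 (adjusted p = 0.898), but with the reads of all 3 added the stretch was at 14.5 and 7.97 CPM in P8 WT and 33.2 and 29.4 CPM in P8 cKO, a difference of 1.48 ± 0.38 (adjusted p = 0.017). The sum at P1 was 7.23 and 8.66 against 15.5 and 18.8 CPM (adjusted p = 0.13), and at P6 12.4 and 14.1 against 11.6 and 24.7 CPM (adjusted p = 0.446). The separate values of *Hist2h2aa1* and *Hist2h3c1* are therefore uncertain. So is that of *Hist2h3c2*, which shares 61.6% of its windows with *Hist2h3c1* and the same share with *Gm20634*. Within a group the sum was higher where *Hist2h2aa1* and *Gm20634* were counted. In P6 cKO it was 24.7 against 11.6 CPM, and in P8 WT 14.5 against 7.97. Both P8 cKO libraries were of this kind, and P8 WT replicate 2 was not. The P8 difference of the sum thus cannot be told apart from this difference in counting. *Gm20633* and *Gm20632*, which hold 100% and 95.9% of the windows of *Hist2h2aa1*, were not added. Adding the reads was decided after these counts had been seen.

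**Figure D5:**
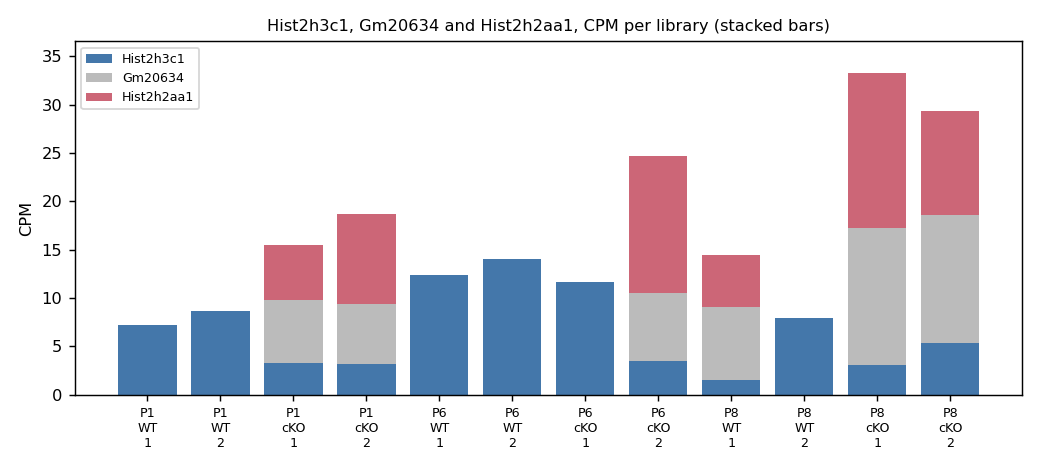
CPM of *Hist2h3c1* (blue), *Gm20634* (grey) and *Hist2h2aa1* (red) stacked for each of the 12 libraries. In 6 libraries all reads counted for these 3 genes were on *Hist2h3c1*, and in the other 6 they were spread over the 3 genes. The stacked level in P8 was 14.5 and 7.97 CPM in WT and 33.2 and 29.4 in cKO. Within P8 WT it was higher in the library where all 3 were counted.

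The promoters of the members share short motifs. RefSeq promoters on GRCm38.p6 were matched to 50 members, which gave 51 promoters, and the 250 bases before each start were searched on both strands. CCAAT, the box bound by NF-Y, was in 42 of 51 (82.4%), compared with 33.8% of 32851 promoters in the table. TATAA, the core of the TATA box, was in 66.7%, compared with 22.8%. ATTTGCAT, the octamer bound by OCT1 on H2B promoters, was in 21.6%, compared with 1.60%, and all 11 were promoters of H2A or H2B genes. CCAAT was in all promoters of H1, H2A and H2B genes, in 7 of 9 of H3 and in 3 of 10 of H4 genes. These are matches of letters and not measured binding sites.

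The promoters of 4 members called at P8 are printed to show this difference between H1 and H4 genes. Each gives the 150 bases just before the start, with CCAAT and TATAA matches on either strand in capitals, at chr13:23738657-23738806 (+ strand), chr13:23554882-23555031 (+), chr13:21811596-21811745 (+) and chr13:21832198-21832347 (- strand).
Hist1h1c: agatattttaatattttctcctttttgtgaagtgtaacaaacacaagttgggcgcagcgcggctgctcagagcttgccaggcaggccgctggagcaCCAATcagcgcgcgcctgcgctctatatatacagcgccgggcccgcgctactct
Hist1h1d: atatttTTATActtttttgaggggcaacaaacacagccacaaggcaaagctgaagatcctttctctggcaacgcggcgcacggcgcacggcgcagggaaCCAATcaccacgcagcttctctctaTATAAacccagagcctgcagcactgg
Hist1h4m: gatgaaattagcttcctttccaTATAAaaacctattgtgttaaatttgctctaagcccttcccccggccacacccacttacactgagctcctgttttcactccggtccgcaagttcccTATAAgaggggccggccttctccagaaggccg
Hist1h4n: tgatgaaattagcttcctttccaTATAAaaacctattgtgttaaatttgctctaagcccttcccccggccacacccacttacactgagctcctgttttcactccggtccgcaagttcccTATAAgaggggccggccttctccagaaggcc
The H1 promoters have CCAAT and the H4 promoters lack it in these 250 bases, and the *Hist1h4m* and *Hist1h4n* promoters are alike in nearly the whole stretch.

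Genes for the transcription and processing of histone mRNA and for histone chaperones were followed as well. Beside the counts below, 11% of all genes tested were called higher in cKO at P8 and 8.33% lower. Of 18 tested genes for the 3′ processing and decay of histone mRNA, 0 were called higher and 1 lower in cKO; *Slbp*, which encodes the stem-loop binding protein, was at 23.1 and 25.5 CPM in WT and 23.7 and 24.1 CPM in cKO (-0.02 ± 0.21, adjusted p = 0.95). The most abundant of this list, *Zcchc6*, *Sympk* and *Srrt*, differed by 0.06, 0.43 and 0.02 on the log2 scale. The gene that was called lower was *Snrpg*, an Sm protein of small nuclear ribonucleoproteins (-0.59 ± 0.15, adjusted p = 0.013). Of 16 genes for transcription of the clusters, 0 were called in either direction at P8; *Npat*, the coactivator at histone loci, was at 52.6 and 57.0 against 46.0 and 46.7 CPM (-0.24 ± 0.09, adjusted p = 0.0771), and *Cdkn1a*, *Rb1* and *Yy1*, the most abundant of this list, differed by 0.21, 0.07 and 0.11. Of 22 histone chaperone genes 0 were called higher and 1, *Hjurp*, lower, and *Npm1*, *Nap1l1* and *Set* differed by 0.13, 0.30 and 0.23.

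Replacement histone genes lie outside the clusters, are also transcribed outside S phase and give mostly polyadenylated mRNAs. Of 11 tested replacement histone genes, 0 were called higher at P8 (beside 11% of all genes) and 1 lower (beside 8.33%), with a median of -0.08. *H3f3b* and *H3f3a*, both encoding H3.3, differed by -0.02 ± 0.04 and -0.13 ± 0.17, and *H2afy*, encoding macroH2A1, by 0.15 ± 0.05, which was under the fold threshold. *H1f0*, the linker histone gene of resting cells, was at 83.6 and 85.6 CPM in P8 WT and 81.8 and 78.5 in P8 cKO (-0.08 ± 0.05, adjusted p = 0.313). The gene called lower was *H2afy2*, encoding macroH2A2, at 30.9 and 35.1 against 13.7 and 14.1 CPM (-1.25 ± 0.10, adjusted p = 4.63e-06). The difference between this list and the clustered genes was not tested.

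Of 32 DNA replication genes, 2 were called higher and 0 lower in cKO at P8, and their summed level was 862 to 879 CPM in WT and 1001 to 1004 CPM in cKO. *Pcna*, the sliding clamp of DNA polymerases, rose by 0.77 ± 0.06 (adjusted p = 5.84e-06), *Mcm6*, of the replicative helicase, differed by 0.54 ± 0.05 and *Rrm1*, a ribonucleotide reductase subunit, by -0.48 ± 0.04. From P6 to P8 in WT, 13 of these 32 fell (beside 10.2% of all genes) and 0 rose (beside 8.53%). Between P6 and P8 the interaction was called positive in 16 (beside 12.7% of all genes) and negative in 0 (beside 8.98%). The median log2 difference of the list, cKO minus WT, went from -0.24 at P6 to 0.26 at P8. Of 22 mitosis genes, 0 were called higher and 1 lower at P8, with sums of 844 to 851 CPM in WT and 724 to 750 CPM in cKO; *Mki67*, a marker of cycling cells, was at 155 and 162 against 149 and 153 CPM (-0.07 ± 0.07, adjusted p = 0.492), and *Top2a* and *Tpx2* differed by -0.29 and -0.04. From P6 to P8 in WT, 4 of the 22 fell and 0 rose (beside 10.2% and 8.53% of all genes). The interaction between P6 and P8 was called positive in 9 and negative in 0 (beside 12.7% and 8.98%), while the median went from -0.51 to -0.19. The mitosis genes in cKO were thus below WT by less at P8 than at P6. The summed level of replication genes at P8 was thus higher in P8 cKO and that of mitosis genes lower. The counts called at P8 stand beside 11% of all genes higher and 8.33% lower. The part of cell cycling in the histone result was not tested.

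Markers of other cells also differed between the genotypes at P8, where 11% of all genes tested were called higher in cKO and 8.33% lower. Of 8 microglia markers 5 were called higher and 1 lower in cKO at P8, with sums of 1950 to 2056 CPM in WT and 3867 to 3870 CPM in cKO, and of 6 fibroblast markers 0 were higher and 6 lower, with sums of 25630 to 25740 against 8149 to 8399 CPM. Of 8 astrocyte markers 0 were called higher and 4 lower. The neural stem cell markers, 3 of 5 called higher and 1 lower, had sums of 180 to 190 CPM in WT and 585 to 591 CPM in cKO. Among 7 oligodendrocyte lineage markers 1 was higher and 3 lower (152 to 152 against 117 to 117 CPM), among 5 neuron markers 1 and 1 (158 to 158 against 189 to 191 CPM), among 4 endothelial markers 1 and 2 (148 to 161 against 37.0 to 39.9 CPM) and among 4 mural markers 1 and 0 (1810 to 1820 against 2226 to 2241 CPM). None of the markers in the table was at 0 in all libraries. Some of these lists also differed at P1 and P6, where no clustered histone gene was called. At P1, 6 fibroblast markers were higher and 0 lower in cKO (397 to 410 CPM in WT against 2481 to 2507). At P6, 0 were higher and 5 lower (6509 to 6564 against 2455 to 2637 CPM). Of the neural stem cell markers, 3 were higher and 0 lower at P6 (938 to 1000 against 2180 to 2211 CPM). All genes called higher and lower made up 4% and 0.881% at P1 and 7.12% and 6.32% at P6. The part of the cell mixture in the histone result was not tested.

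RNAs that carry no poly(A) tail were also followed. Of 9 such genes that were counted, 6 were tested, and their summed level was between 0.872 and 13.3 CPM per library. At P8 the sums were 6.37 to 13.3 CPM in WT and 4.27 to 5.43 CPM in cKO. Of the 6, 0 were called, beside 11% of all genes higher and 8.33% lower. The 3 most abundant, the signal recognition particle RNAs *Rn7s2* and *Rn7s1* and the transcription regulator *Rn7sk*, rose from P6 to P8 in WT. Their level can change with the capture or with the expression of these genes, which cannot be told apart here, and its part in the histone result was not tested.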

How the data were processed

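RNA-seq of captured mRNA was analysed in 12 libraries of mouse primary astrocytes, 2 for each genotype and age. The authors deposited raw counts per gene, made from reads that they mapped with Hisat2 to GRCm38/mm10; the mapping version, how reads were assigned to genes, whether strand was used and how multi-mapped reads were handled were not found in the labels or methods. Library totals ranged from 54413504 to 89183250. Counts were tested with edgeR 4.0.16 in R 4.3.3 (TMM scaling, filterByExpr, robust quasi-likelihood fit over all 12 libraries and 17938 genes, Benjamini-Hochberg adjustment over all genes), and the script was tested on simulated data. A gene was called at adjusted p under 0.05 and at least 1.5-fold, and an interaction at adjusted p alone. The errors given are SE = |log2 difference| divided by the root of F. A count of 0 was taken to allow up to 3 reads, which covers counting error only. Gene models came from GENCODE vM21 and promoters from RefSeq (GRCm38.p6).

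The members and all gene lists were chosen with earlier results of these data known. The text names the 8 members of highest mean CPM, up to 4 rises and 4 falls per comparison and up to 2 each way per interaction among called members with a mean of at least 1 CPM, all H1 genes, and from each other list the 3 of highest mean CPM with *Slbp*, *Npat*, *Mki67* and *Zmynd8*; others were named after their values were seen. The alternatives were DESeq2 1.42.0, other scaling, no filter, the compared groups alone, a replicate block, unadjusted p, a 2-fold threshold and leaving out each library. A fit that was not robust, leaving out members with over 50% shared windows, the sum over the cluster 2 stretch and class sums without its genes were added after seeing the data. Replicates of a group differed by more than sampling noise in all 6 groups.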

Additional observations from a re-analysis of the deposited data

Results flagged for a closer look

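In 7 clustered histone genes the genotype difference at P8 was larger than that at P6 by edgeR's test of the interaction (log2 difference of differences ± SE, adjusted over all genes tested). These were *Hist1h4n* (2.10 ± 0.46, adjusted p = 0.00867), *Hist1h4m* (1.90 ± 0.47, adjusted p = 0.017), *Hist1h2br* (1.33 ± 0.42, adjusted p = 0.048) and *Hist1h1d* (1.18 ± 0.34, adjusted p = 0.0318). The others were *Hist1h4i* (0.94 ± 0.24, adjusted p = 0.0196), *Hist1h2bc* (0.43 ± 0.08, adjusted p = 0.00298) and *Hist1h1c* (0.29 ± 0.07, adjusted p = 0.0111). All 7 terms were positive, while the share of members was 13.5% beside 12.7% of all genes. The call of *Hist1h2br* was lost in 10 of the 12 fits that left out a library, and those of *Hist1h1d*, *Hist1h4i* and *Hist1h4m* in 6, 5 and 2.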

How the results depend on the processing

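Of 352 counts of called members under other settings, 297 stayed within 1.5 times the main count and 55 did not. The cause was not tested. Main counts of 0 are among these, and a 0 that stayed 0 was taken as unchanged. With the 2-fold threshold or without members of high shared sequence, a 0 had to stay 0. With DESeq2, members higher in cKO numbered 2 at P1 and 2 at P6, 1 was lower at P1, 1 rose from P6 to P8 in WT, 2 fell from P1 to P6 and 2 from P6 to P8 in cKO, and the genotype difference changed in 3 between P1 and P6 and in 13 between P6 and P8. With library totals and no factor, 1 member fell from P1 to P6 in cKO, and the median of all genes from P1 to P6 moved by -0.105 in WT and -0.108 in cKO. With the compared groups alone, 1 member was higher and 1 lower at P1, 1 higher at P6, and 1 fell from P1 to P6 in WT. With a replicate block, 1 was lower at P1, 1 fell from P1 to P6 and 2 from P6 to P8 in cKO, 1 changed between P1 and P6, and 18 were higher at P8; same-numbered libraries deviated together with r of -0.0627 to 0.0442, so the samples share only a number. At an unadjusted p, 4 were higher and 1 lower at P1, 1 higher at P6, 2 fell in each step in cKO, and 4 and 15 had a changed genotype difference. At 2-fold, 2 rose from P1 to P6 in cKO and 0 rose and 0 fell from P6 to P8 in cKO. With a fit that was not robust, 2 changed between P1 and P6. Without members of over 50% shared windows, 13 were higher at P8, 1 rose from P1 to P6 and 5 fell from P6 to P8 in WT, 1 rose from P6 to P8 in cKO, and 4 had a changed genotype difference between P6 and P8. Leaving out each library, the count higher at P8 was 9 to 19, rises from P1 to P6 were 1 to 4 in WT and 1 to 4 in cKO, falls from P6 to P8 in WT 4 to 9, rises from P6 to P8 in cKO 1 to 3 and falls 1 to 2, and changed genotype differences 0 to 1 between P1 and P6 and 4 to 9 between P6 and P8 (4 without P6 WT replicate 2, P6 cKO replicate 2, P8 WT replicate 2 or P8 cKO replicate 1). Among named genes, *Hist2h3c1* at P8 ranged from -0.91 without P8 WT replicate 1 to 1.47 without P8 WT replicate 2, with 0.16 without P8 cKO replicate 1 and 1.48 for the summed stretch, and *Hist1h1b* from -0.25 to 0.14. Depth limits the members with few reads.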
